A study of Mus musculus with 2 samples.

Results

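The regions described here are 1000 distal accessibility peaks that were most open in nuclei with an embryonic mesoderm RNA profile, out of 229480 peaks measured. They were taken from autosomal peaks that lay more than 1000 bp from every listed gene start (199715 peaks) and that had at least 100 counts in the mesoderm class (18378 peaks, called eligible below). Eligible peaks were ranked by the class's counts per 1000000 peak counts (CPM) divided by the CPM of all other nuclei in range, with the other count floored at 3, and the 1000 highest were kept. The class held the 700 barcodes with the highest mean ln(1 + UMIs per 10000) of Mesp1, Lefty2, Dll1, Pcdh19 and Tenm2, among 11605 of 15341 barcodes with 3000 to 30000 UMIs and at least 2000 peak counts. The peaks were therefore chosen by the readout, and their enrichment in the class over all other nuclei is given as a description only.

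Pooled mouse embryos at embryonic day 7.0 (E7.0) had been dissociated to single cells and processed as nuclei on the 10x Genomics platform. The groups were the RNA of E7.0 nuclei and their chromatin accessibility (DNA open to a transposase), both read from the same nuclei in 1 library per assay, so no test was possible and nothing had a replicate check. The label fields conflicted: the title, age and protocol gave E7.0 embryos, whereas the tissue and source fields named the small intestine for RNA and the distal colon for accessibility, with goblet cells as cell type and RedMUC298trTg as strain. No treatment was given for either group, and embryos had been pooled, so no nucleus could be assigned to an animal. Intervals are at 95%, cover counting error only and, for accessibility, were scaled from estimated fragments, because most peak values were even numbers.

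Mesoderm forms at gastrulation, when epiblast cells pass through the primitive streak, lose their epithelial junctions and migrate between the epiblast and the visceral endoderm. Cells that leave the streak as mesoderm become embryonic mesoderm, the source of heart, head and body muscle, or extraembryonic mesoderm, which contributes to the amnion, allantois and yolk sac. Distal peaks are stretches of open chromatin away from gene starts, and many of them are enhancers, elements that can act on genes over long distances.

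The class carried the RNA of embryonic mesoderm beyond the 5 genes that defined it. Of 16 other embryonic mesoderm genes with at least 50 UMIs, 15 were at least 2-fold higher in the class than in the other nuclei, against 5.67% of all 17652 genes with as many UMIs, and the list of 18 summed to 5192 CPM of RNA against 1235 CPM (4.2-fold, 4.16 to 4.25). Some of the 15, such as Rspo3, Zeb2 and Eomes, were higher still in another class. Msgn1 and Meox1, left out for too few UMIs, had 1 and 3 UMIs in the class. The marker lists had been chosen with earlier results of these data known, so these counts are a description only. Genes of the primitive streak were 2.59-fold higher in summed UMIs (5 of 7 at least 2-fold higher and 0 lower). Those of extraembryonic mesoderm were 1.40-fold higher (0 of 5 tested genes at least 2-fold higher and 2 at least 2-fold lower). Those of epiblast and visceral endoderm lay at 0.414 and 0.202 of the other nuclei. All 7 visceral endoderm genes and 6 of 7 epiblast genes were at least 2-fold lower, against 16.0% of all genes. The goblet and intestinal list had 67 UMIs among 8636065 in the class, or 7.76 CPM against 28.8 CPM in the others, with Muc2, Fcgbp and Clca1 at 0 in the class. A UMI of that list was found in 8.0% of class barcodes and 20.6% of the others. The immune list of 5 genes had 50 UMIs, 5.79 CPM in the class against 2.12 CPM in the others, with Ptprc and Lyz2 at 0, and its part in the results was not tested. The class was a range of a score with no gap at its limit. Its lowest score was 0.825, the next barcode had 0.824, and 170 barcodes lay within 0.05 of that limit. Whether the class was a discrete type was not tested. Class nuclei had a median of 22496.5 peak counts and 11672.5 UMIs against 19268 and 11339 in the 10905 others, and doublet calls made up 4.71% of the class and 6.33% of the others.

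Members of the set that overlapped an annotated start in RefSeq give a view of their sequence. RefSeq promoter windows (250 bases before to 50 after a start, build GRCm38.p6) overlapped 10 members (1.0%) and 617 of the eligible peaks (3.36%). The 3 windows below, 1 for each of the 3 genes concerned, lay wholly inside a member. They are shown because they are member sequence, and capitals mark matches, on either strand, to 7 short motifs bound by factors active in gastrulation. T-box factors such as Brachyury and Eomes bind the core GGTGTGA. The partners of beta-catenin in Wnt signalling, TCF and LEF factors, bind CTTTGAT. Forkhead factors bind TGTTTAC, and zinc finger factors of the Gata family bind AGATAA. The repressors Snai1 and Zeb2 bind the E-box CAGGTG, and basic helix-loop-helix factors such as Mesp1 bind E-boxes, of which CAAATG was searched. Homeodomain factors such as Otx2 and Gsc bind TAATCC.
Gm52874 window, chr6:119314849-119315148, minus strand: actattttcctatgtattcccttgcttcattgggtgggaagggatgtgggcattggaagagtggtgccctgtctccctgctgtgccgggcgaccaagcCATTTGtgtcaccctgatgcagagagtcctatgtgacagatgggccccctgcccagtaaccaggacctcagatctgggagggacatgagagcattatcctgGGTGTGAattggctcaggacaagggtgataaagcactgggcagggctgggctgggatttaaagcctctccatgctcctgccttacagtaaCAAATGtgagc
Gm40277 window, chr5:32090170-32090469, plus strand: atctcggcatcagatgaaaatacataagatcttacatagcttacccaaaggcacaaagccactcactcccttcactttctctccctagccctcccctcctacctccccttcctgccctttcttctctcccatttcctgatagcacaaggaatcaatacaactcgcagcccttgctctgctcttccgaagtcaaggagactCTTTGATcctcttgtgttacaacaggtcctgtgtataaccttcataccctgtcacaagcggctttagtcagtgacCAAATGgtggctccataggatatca
Gm13539 window, chr2:25784367-25784666, plus strand: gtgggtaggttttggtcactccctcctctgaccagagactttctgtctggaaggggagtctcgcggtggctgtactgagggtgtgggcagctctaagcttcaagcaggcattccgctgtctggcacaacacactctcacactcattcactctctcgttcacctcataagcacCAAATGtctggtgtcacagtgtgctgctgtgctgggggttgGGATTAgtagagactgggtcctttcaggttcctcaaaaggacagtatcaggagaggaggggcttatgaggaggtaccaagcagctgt
The Gm52874 window held a match to the T-box core and a pair of matches to CAAATG, the Gm40277 window a TCF/LEF match and CAAATG, and the Gm13539 window CAAATG and the reverse complement of TAATCC. Among all 32851 RefSeq windows of that length, GGTGTGA occurred in 3.98%, CTTTGAT in 3.73%, CAAATG in 13.7% and TAATCC in 7.06%. These matches describe the letters only, and sequence was available for no member outside such windows and miRNA hairpins.

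Those 3 members differed widely in level. The member around the Gm52874 window, chr6:119314439-119315306 inside Cacna2d4 (a calcium channel subunit gene), was the fourth highest of all members in class counts, with 834 counts or 53.7 CPM. Its level was 26.4 CPM in primitive streak, 20.7 in extraembryonic mesoderm, 7.2 in node and axial mesendoderm, 6.35 in haemato-endothelial progenitor and 1.01 in epiblast. The member around the Gm40277 window, chr5:32089993-32090818, and that around the Gm13539 window, chr2:25784056-25784900 inside Glt6d1, had 101 counts each, or 6.5 CPM, close to the minimum of 100.

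A further 2 members each contained a whole miRNA hairpin, and the mature sequences of these miRNAs are shown with the seed (bases 2 to 8) in capitals, because these members contained the whole hairpin. No 2 of the 3 shared a seed.
mmu-miR-6540-3p, chr16:42303386-42303406, minus strand: uCUGAAGCuugcuuaccucca
mmu-miR-190a-3p, chr9:67236664-67236685, minus strand: aCUAUAUAucaagcauauuccu
mmu-miR-190a-5p, chr9:67236700-67236721, minus strand: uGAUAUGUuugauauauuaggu
The member with Mir6540, chr16:42303300-42304212 inside Gap43 (a growth cone protein gene), had 336 class counts or 21.6 CPM against 13.5 CPM in extraembryonic mesoderm and 0.862 in epiblast. The member with Mir190a, chr9:67236000-67236745 inside Tln2 (talin 2, which couples integrins to actin), had 151 class counts or 9.72 CPM, and its levels in extraembryonic mesoderm (7.32 CPM) and haemato-endothelial progenitor (7.25 CPM) were close to that of the class. The miRNAs themselves were not measured.

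Individually the members were sparse. Class counts ran from 100 to 905 with a median of 169, which is a median of 10.9 CPM in the class against 1.54 CPM in the other nuclei. The class-over-other ratio that ranked them ran from 5.44 to 19.2 with a median of 6.89, against a median of 1.28 over all eligible peaks, and 28.7% of eligible peaks passed 2-fold in that contrast. A typical member was detected in 11.1% of class nuclei (lowest 6.29%, highest 48.9%) and in 1.55% of the others. A class nucleus had a count in a median of 132 of the 1000 members (quartiles 91 and 178.25), against 9 in the other nuclei, 8 in epiblast, 30 in primitive streak and 41 in extraembryonic mesoderm. The limit was not a gap: the last 5 members had ratios of 5.44, and the next 5 peaks had ratios of 5.43 to 5.44. The last member, inside Appl2, had 130 class counts, and the first peak left out, inside Prkce, had 198.

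The member with the highest ratio, chr8:48177079-48177968, lay between genes, 66868 bp from Dctd. It had 120 class counts or 7.72 CPM, and no other class exceeded 0.984 CPM, so its 19.2-fold ratio rested on few counts (13.0 to 28.4). The second, chr10:4732920-4733815 inside Esr1 (the oestrogen receptor alpha gene), had 104 class counts or 6.69 CPM against 0.412 in all others. The sixth, chr12:77760627-77761611, was the most selective by class: 18.0 CPM in the class, 1.48 in primitive streak, 1.20 in node and axial mesendoderm and 0.376 in extraembryonic mesoderm, a ratio of 12.2 to the next class. The other 7 of the 10 highest lay at 6.95 to 16.6 CPM in the class. These included peaks inside Tenm2 and Dlc1, which are described with their genes below, and 1 peak located 6907 bp from Gm49542, a listed gene of unknown function whose RNA had 42 UMIs in the class and 37 in all other nuclei.

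The members with most counts lay at varied distances from gene starts. The highest, chr5:128877282-128878102 inside Rimbp2 (a presynaptic scaffold gene), 57260 bp from its start, had 905 class counts or 58.3 CPM, followed by 31.0 CPM in primitive streak, 13.1 in extraembryonic mesoderm and 4.17 in epiblast. The second, chr1:180889851-180890726, lay 2382 bp from the start of Lefty2, the secreted Nodal antagonist that is itself one of the genes that defined the class. It had 885 counts, with 57.0 CPM in the class, 21.5 in primitive streak, 17.7 in extraembryonic mesoderm, 8.88 in haemato-endothelial progenitor, 7.0 in node and axial mesendoderm and 6.54 in epiblast. A member inside Pla2g6 had 56.3 CPM in the class and 24.3 in primitive streak. The fifth, inside Rftn1, had 52.8 CPM in the class, 38.3 in extraembryonic mesoderm and 26.1 in primitive streak. In all 5 of these, the streak or extraembryonic mesoderm was the next class, at 1.38 to 2.65 times below.

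Other classes were drawn by fixed marker lists from the nuclei outside the 700, and 70 barcodes that fell in more than 1 of them were left out. The share of a class's peak counts that fell in the members was 1.36% in the embryonic mesoderm class. It was 0.527% in extraembryonic mesoderm (257 nuclei), 0.419% in primitive streak (282), 0.259% in haemato-endothelial progenitor (269) and 0.148% in node and axial mesendoderm (282). It was 0.116% in ectoplacental cone and giant cell (91), 0.0844% in parietal endoderm (97), 0.0774% in epiblast (694), 0.0703% in extraembryonic ectoderm (695) and 0.0613% in visceral endoderm (693). The mesodermal and streak classes thus lay above all others. Epiblast, the tissue from which mesoderm arises, lay with the endoderm and trophoblast classes. All these classes were part of the other nuclei in the ranking, so the ranking itself favoured low shares in them, epiblast included. Over all eligible peaks the share was 19.24% in epiblast, 20.94% in extraembryonic mesoderm and 21.95% in streak. It was 13.65% in visceral endoderm and 15.25% in extraembryonic ectoderm. The part of the ranking in the low share of epiblast was not tested. Per nucleus, the quartiles of the class (1.16% and 1.61%) did not overlap those of any other class, although the extremes did. The members had been ranked on these same 700 barcodes, which favoured that separation. Of the other nuclei, 281 (2.58%) reached the lower quartile of the class, 17 of them in the streak class and 14 in extraembryonic mesoderm.

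**Figure D1:**
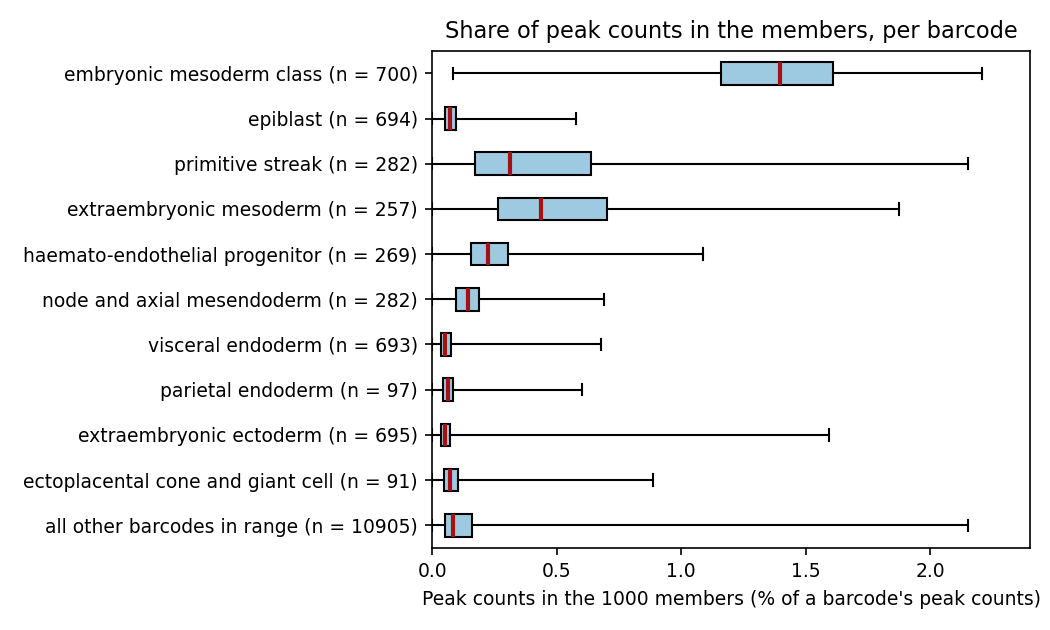
Share of each barcode's peak counts (x axis, %) that fell in the 1000 members, for the class used to choose them and 9 other classes, and for all other barcodes in range. Boxes are quartiles, red lines medians and whiskers the lowest and highest barcode; the class median is 1.40%, against 0.437% in extraembryonic mesoderm and 0.310% in primitive streak.

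Openness of the members declined along the score. Within the class the share was 1.49% in the highest 175 barcodes and 1.43%, 1.26% and 1.25% in the following bins of 175. Outside it, where the barcodes had entered the ratio only as part of the other nuclei, the share was 1.03% at ranks 701 to 1050 and 0.764% at ranks 1051 to 1400. It then lay at 0.446%, 0.210%, 0.141%, 0.099% and 0.0958% in the successive bins down to the lowest ranks. The comparison group therefore held barcodes in which the members were nearly as open as in the class, and the ratios of 5.44 to 19.2 are ratios to that mixed group. Of the streak class, 90 of 282 barcodes ranked from 701 to 1400, and of extraembryonic mesoderm 49 of 257. With classes redrawn below rank 1400, an alternative added after the data had been seen, the share was 0.278% in streak and 0.426% in extraembryonic mesoderm.

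**Figure D2:**
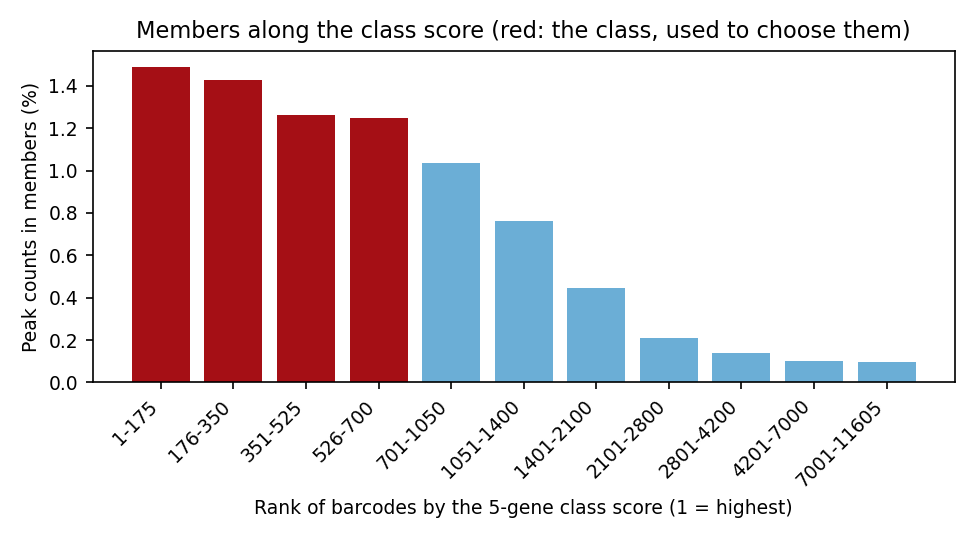
Percent of peak counts in the members (y axis) for barcodes ranked by the 5-gene class score (x axis; red bars are the class, blue bars the other barcodes). The share declines from 1.49% to 0.0958%. It is 1.25% in the last bin of the class and 1.03% in the next bin, which holds more barcodes.

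The members were most open in the mesoderm class of all 10 classes in 970 of 1000 cases, against 26.3% of eligible peaks, a count that the ranking itself favoured. The median ratio of the class to the next class was 2.35, which the ranking favoured too. With counting error, the interval of that ratio lay above 1 at 782 members, spanned 1 at 213 and lay below 1 at 5. These intervals used the class counts that had ranked the members, so the ranking favoured values above 1. They were not counted over all eligible peaks. The next class was extraembryonic mesoderm for 497 members and primitive streak for 361, then haemato-endothelial progenitor for 59, node and axial mesendoderm for 30 and ectoplacental cone and giant cell for 29. Over all eligible peaks the highest of the 9 other classes was extraembryonic mesoderm for 17.7%, streak for 21%, haemato-endothelial progenitor for 10.1%, node and axial mesendoderm for 10.1%, ectoplacental cone and giant cell for 9.64% and epiblast for 15.2%, the last against 1 member. The ectoplacental cone and giant cell class had 1927879 peak counts in all, so that 1 count there equalled 0.519 CPM.

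Members were shared less often with every other class than eligible peaks were, and what sharing there was lay mostly with the mesodermal classes. Extraembryonic mesoderm reached at least 0.5 of the class CPM at 239 members, primitive streak at 93, haemato-endothelial progenitor at 48, ectoplacental cone and giant cell at 15 and node and axial mesendoderm at 6. Epiblast, visceral endoderm and extraembryonic ectoderm reached it at 0 members, whereas epiblast reached it at 65.6% of eligible peaks. The shares of eligible peaks were 80.0% for extraembryonic mesoderm, 83.2% for streak, 68.4% for haemato-endothelial progenitor, 41.8% for ectoplacental cone and giant cell and 71.9% for node and axial mesendoderm, and the ranking itself favoured low values in these classes. With classes redrawn below rank 1400, extraembryonic mesoderm reached that level at 149 members, haemato-endothelial progenitor at 49 and streak at 12. The redraw removed barcodes next to the class in score and also refilled the classes from lower marker scores. The part of each in these counts was not tested. A member inside Scfd2, chr5:74340713-74341597, was at 7.08 CPM in the class and 7.14 in extraembryonic mesoderm, with 0 counts in epiblast. At chr13:80388820-80389785 the class had 7.21 CPM, extraembryonic mesoderm 7.51 and haemato-endothelial progenitor 12.1, so that the class stood at 0.593 of the next class. A member near Ddx1, chr12:13197928-13198836, had 34.4 CPM in the class, 41.3 in extraembryonic mesoderm, 11.2 in streak and 0.431 in epiblast. Extraembryonic mesoderm exceeded the class at 17 members, haemato-endothelial progenitor at 10, ectoplacental cone and giant cell at 3 and primitive streak at 1. That of streak, chr6:115492740-115493590, had 9.84 CPM in streak and 7.27 in the class. These counts were not made over all eligible peaks. The lowest ratio to the next class, 0.424, was at chr11:95349840-95350696 inside Fam117a. That member had 14.3 CPM in the class and 33.7 in ectoplacental cone and giant cell.

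Each other class was also compared with the remaining other nuclei, a contrast in which the 700 took no part. Extraembryonic mesoderm was at least 2-fold higher than the remaining other nuclei at 643 of 1000 members, against 17.9% of eligible peaks. Primitive streak was so at 531 members (14.3% of eligible peaks) and haemato-endothelial progenitor at 170 (9.40%). Node and axial mesendoderm was so at 45 members (6.24%), ectoplacental cone and giant cell at 49 (3.98%) and parietal endoderm at 35 (2.83%), shares near those of all eligible peaks. Extraembryonic ectoderm was higher at 9 members (3.69%), visceral endoderm at 4 (3.38%) and epiblast at 0 (1.12%). The ranking kept peaks low in the other nuclei as a whole, so these counts describe how the remaining openness was distributed. By the class score, 90 of 282 streak barcodes and 49 of 257 in extraembryonic mesoderm ranked from 701 to 1400. This contrast was not repeated without them.

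At the other end, 33 members had no other class at 0.2 of the class CPM or more, of 34 such peaks among all eligible ones. The ranking itself favoured this count. The 33 included the member near Dctd and, chosen after its values were seen, chr14:8208729-8209622, which lay 4518 bp from Kctd6 (a ubiquitin ligase adaptor gene). That member had 526 class counts and 33.9 CPM, against 4.51 in extraembryonic mesoderm, 3.77 in primitive streak, 2.36 in haemato-endothelial progenitor and 0.791 in epiblast.

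Members lay far from gene starts. Their median distance to the nearest listed start was 31807 bp (quartiles 12702 and 64757), against 14115.5 bp for all eligible peaks. Only 10.7% lay between 1000 and 5000 bp from a start, against 24.3% of eligible peaks, and 156 members (128 and 28 in the last distance bins) lay beyond 100000 bp. About as many lay inside a protein-coding gene of RefSeq (49.3%) as of eligible peaks (50.5%), and the median peak width was 883 bp against 887. Per chromosome, members made up from 3.96% (chromosome 15) to 7.42% (chromosome 1) of eligible peaks. Grouping members less than 50000 bp apart gave 890 loci, of which 796 held a single member, 81 held 2, 10 held 3 and 3 held 4.

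**Figure D3:**
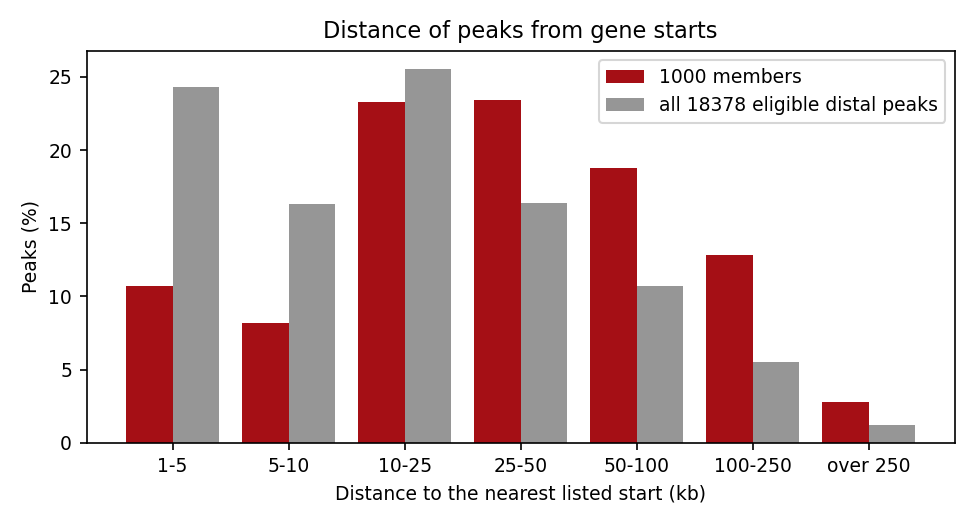
Percent of peaks (y axis) by distance to the nearest listed start in kb (x axis), for the 1000 members and all 18378 eligible distal peaks. Members are fewer in the 1 to 5 kb bin (10.7% against 24.3%) and more frequent beyond 25 kb.

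The 3 loci of 4 members differed in their genes. On chromosome 8, from 36677677 to 36701360, all 4 members lay inside Dlc1, whose RNA was 448 CPM in the class and 75.6 CPM in the other nuclei (5.92-fold, 5.71 to 6.15). These members had 15.9, 8.75, 8.69 and 6.76 CPM in the class and at most 0.431 in epiblast. On chromosome 18, 4 members lay from 15084 to 41270 bp from the start of Pmaip1, a pro-apoptotic BH3 gene with RNA of 133 CPM in the class and 47.2 CPM in the others (2.83-fold, 2.65 to 3.01). On chromosome 1, 4 members from 158019851 to 158089800 lay inside no gene, the closest listed start being that of Brinp2 at 266526 bp or more from each. Brinp2 RNA was lower in the class than elsewhere, at 1.51 CPM against 3.58 (0.42-fold, 0.222 to 0.725). Another 5 members were nearest to Gm34322 on chromosome 9, a listed gene with 0 UMIs in the class and 4 in the others.

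RNA near the members was more often high in the class. The class had been drawn on the RNA of 5 genes, which are left out of every count here. Of 535 genes nearest to a member and with at least 50 UMIs, 152 (28.4%) were at least 2-fold higher in the class than in the other nuclei, against 5.67% of all 17652 genes and 9.12% of genes nearest to an eligible peak. Another 60 (11.2%) were at least 2-fold lower, against 16.0% of all genes. Of 382 protein-coding genes that contained a member, 110 (28.8%) were higher, against 9.54% of those that contained an eligible peak. At the level of members, 262 (26.2%) had at least 1 such higher gene start within 100000 bp, against 17.5% of eligible peaks. A lower one was near 144 members (14.4%), against 32.9% of eligible peaks. The sets differed in how many peaks had a gene to count. A gene with at least 50 UMIs started within 100000 bp of 695 of 1000 members and of 15701 of 18378 eligible peaks.

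The share of higher genes was larger near several members and smaller at greater distance. It was 4.63% of genes with no member within 100000 bp, 15.2% with 1, 25.7% with 2, and 17 of 26 (65.4%) with 3 or more. By distance from a gene's start to the nearest member, it was 38.5% of 130 genes up to 10000 bp, 25.3% of 229 up to 25000 bp, 16.1% up to 50000 bp and 11.5% up to 100000 bp. Beyond that it was 6.47% up to 250000 bp and 4.10% to 5.26% in the farther bins, near the 5.67% of all genes. Counted over peaks, so that a gene nearest to several counts more than once, members 1000 to 5000 bp from their nearest gene had a higher one in 51.6% of 62 cases with enough UMIs, against 12% for eligible peaks in the same distance range, whereas beyond 100000 bp the values were 22.6% and 20.3%. In that farthest range a lower gene was nearest in 21.5% of cases for members and 15.3% for eligible peaks, and from 1000 to 5000 bp in 9.68% and 18.6%.

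**Figure D4:**
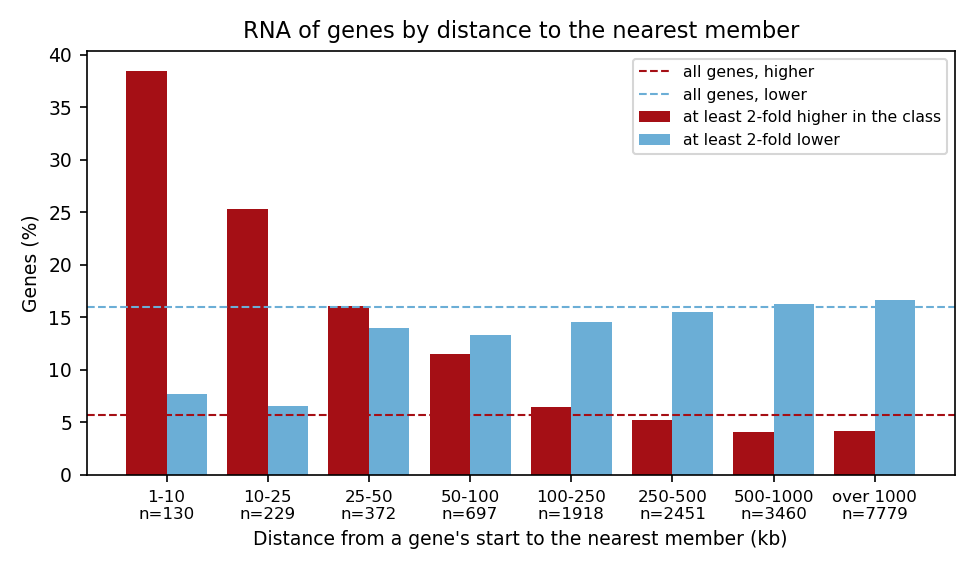
Percent of genes (y axis) with RNA at least 2-fold higher (red) or lower (blue) in the class, by distance from the gene's start to the nearest member (x axis; n is genes with at least 50 UMIs); dashed lines are all genes, 5.67% higher and 16.0% lower. The red bars go from 38.5% to about 4% with distance.

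Promoters of these genes passed 2-fold less often than their RNA did. Of 670 genes nearest to a member with at least 50 promoter peak counts (peaks within 1000 bp of a start), 46 (6.87%) had promoter accessibility at least 2-fold higher in the class, against 2.34% of 22204 genes. Another 25 (3.73%) were at least 2-fold lower, against 5.93%. Among nearest genes with RNA at least 2-fold higher, 13 of 143 (9.09%) passed 2-fold at the promoter, close to the 67 of 885 (7.57%) among all genes with higher RNA. Over the 27 genes of the lists with a member within 100000 bp, the promoter ratio had a median of 1.26 and ran from 0.762 (Robo1) to 2.66 (Aplnr). Aplnr, Cdh11 (2.28) and Dll1 (2.10) passed 2-fold, Lef1 was at 1.81, and Foxc1, Snai1 and Lefty2 were at 1.08, 1.03 and 1.14. Outside the lists, 4932435O22Rik was at 5.32.

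Signalling genes had members nearby more often than genes at large. Of 44 signalling genes, 15 (34.1%) had a member within 100000 bp, against 7.86% of all autosomal genes. In RNA, 16 of 42 were at least 2-fold higher and 6 lower, against 5.67% and 16.0% of all genes, with a median fold of 1.77 against 0.951 over all autosomal genes. The list and the members were both chosen with results of these data known, and 2 genes that defined the class are among its 44. Apart from the 5 class genes and the 18 other embryonic mesoderm genes, the list held 38. Of these, 37 had an eligible peak within 100000 bp, against 20619 of 32267 genes, non-autosomal ones included, and 11 had a member. Of the 20619 genes, which leave out the class genes, 2386 had a member. In the count of 15, Lefty1 and Lefty2 stood for the same member, and Fgf3 and Fgf4 for the same 3. The part of eligible peaks nearby in the count of genes with a member was not tested.

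Among ligands and antagonists of the Nodal, Wnt and FGF pathways, Lefty2, Wnt5a, Wnt2, Fgf3 and Fgf4 had members. Wnt5a, a ligand of non-canonical Wnt signalling and cell migration, was nearest to 2 members located inside the neighbouring gene Erc2, at 85586 and 128059 bp from its starts. They had 14.1 and 39.8 CPM in the class, 5.45 and 16.7 in extraembryonic mesoderm, 3.28 and 16.9 in primitive streak, and 0.359 and 2.30 in epiblast. Wnt5a RNA was 67.2 CPM in the class, 71.5 in extraembryonic mesoderm, 25.8 in streak and 4.18 in epiblast. The RNA was thus near the class level in extraembryonic mesoderm, where both members were lower than in the class. Erc2 RNA, in contrast, was 16.1 CPM in the class and 38.0 in the others. Fgf3 and Fgf4, neighbouring FGF ligand genes, shared 3 members at 2683, 33145 and 34547 bp from Fgf3. The last of these had 30.4 CPM in the class, 11.3 in streak, 7.89 in extraembryonic mesoderm and 0.431 in epiblast, while the 2 others had 16.1 and 11.8 CPM in the class. Fgf3 RNA was 75.7 CPM against 10.1 (7.49-fold, 6.81 to 8.23) and Fgf4 RNA 10.7 against 2.48 (4.30-fold, 3.38 to 5.43). Wnt2, named after its values had been seen, had members at 1895 and 10967 bp with 9.78 and 7.34 CPM in the class, and RNA of 48.9 CPM against 3.57 (13.7-fold, 12 to 15.6).

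A member could also lie near an antagonist whose RNA was low in the class. The member near Lefty2 was 44296 bp from Lefty1, a second Nodal antagonist, with 3.94 CPM of RNA in the class against 23.0 (0.171-fold, 0.118 to 0.239). Cer1, a secreted inhibitor of Nodal, BMP and Wnt, lay 30807 bp from a member inside Frem1 with 8.30 CPM in the class, and its RNA was 8.80 CPM against 36.7. Cer1 RNA was at 243 CPM in the node and axial mesendoderm class, where that member had 0.2 CPM.

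Of receptors, Notch1, Kdr, Cxcr4 and Aplnr had a member each within 100000 bp. The member inside Notch1, 16279 bp from a start, had 44.7 CPM in the class, 19.5 in streak, 14.3 in extraembryonic mesoderm and 3.52 in epiblast, and Notch1 RNA was 71.2 CPM against 13.9 (5.13-fold, 4.68 to 5.63), with 74.2 CPM in haemato-endothelial progenitor. At 47366 bp from Cxcr4, a chemokine receptor of migrating cells, a member had 27.6 CPM in the class, 14.8 in extraembryonic mesoderm, 8.52 in haemato-endothelial progenitor and 3.94 in streak. The member 48806 bp from Kdr, the VEGF receptor of blood and vessel progenitors, had 9.27 CPM in the class, 6.16 in haemato-endothelial progenitor and 5.82 in extraembryonic mesoderm. The member 54546 bp from Aplnr, the apelin receptor, lay inside Lrrc55 and had 11.5 CPM in the class. RNA of Cxcr4, Kdr and Aplnr was 3.75-fold, 3.15-fold and 6.28-fold higher in the class than in all other nuclei, but it was not highest there in each case. Kdr RNA was 123 CPM in the class, 553 in haemato-endothelial progenitor and 242 in extraembryonic mesoderm. Cxcr4 RNA was 34.7 CPM in the class, 34.3 in extraembryonic mesoderm and 33.5 in node and axial mesendoderm, and Aplnr RNA was 50.5 CPM in the class and 54.7 in haemato-endothelial progenitor. The Notch ligand Dll1, a gene that defined the class, had a member 47171 bp away, inside Fam120b, with 15.8 CPM in the class and 9.95 in extraembryonic mesoderm.

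Among Wnt pathway effectors, Lef1, a DNA-binding partner of beta-catenin, was nearest to 3 members, more than any other list gene. A pair inside the gene, 5071 and 5793 bp from its starts, had 26.2 and 14.9 CPM in the class, 12.8 and 5.58 in streak, 8.26 and 7.32 in extraembryonic mesoderm and 1.72 and 1.01 in epiblast. The third, 75096 bp from the starts, had 12.5 CPM in the class, 5.41 in streak and 0.144 in epiblast. Lef1 RNA was 1303 CPM in the class and 316 in the others (4.12-fold, 4.04 to 4.21). Axin2, a negative feedback target of Wnt, had a member at 22106 bp with 27.9 CPM in the class and 11.6 in streak, and its RNA was 74.5 CPM in the class, 45 in all others and 127 in streak. Spry4, a feedback inhibitor of FGF signalling, had a member at 35098 bp with 22.1 CPM in the class and RNA at 1.77-fold.

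Of 32 transcription factors of mesoderm, 31 of them autosomal, 5 had a member within 100000 bp (15.6%, against 7.86% of all autosomal genes). These were Foxc1, Snai1, Zeb2, Lhx1 and Tcf15. Apart from the 5 class genes and the 18 other embryonic mesoderm genes, the list held 20 factors. Of these, 19 had an eligible peak within that distance, but only 1 had a member, against 2386 of the 20619 genes with an eligible peak. In RNA 19 of 28 factors of the full list were at least 2-fold higher and 1 lower, against 5.67% and 16.0% of all genes. Foxc1, a forkhead factor of paraxial mesoderm, had 3, at 11448, 21581 and 45812 bp, with 9.46, 9.08 and 42.6 CPM in the class. The farthest of them was also at 19.2 CPM in streak, 11.8 in extraembryonic mesoderm and 1.01 in epiblast. Foxc1 RNA was 26.9 CPM in the class against 1.61 (16.6-fold, 13.8 to 20.1). Snai1, a repressor of Cdh1 in the epithelial to mesenchymal transition, had 2 at 20156 and 25288 bp with 37.8 and 45.4 CPM in the class, and 17.4 and 18.9 in streak. Snai1 RNA was 184 CPM against 29.7 (6.21-fold, 5.86 to 6.58).

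Zeb2, another such repressor, contained 2 members with 8.95 and 19.1 CPM in the class, and its RNA was 450 CPM against 108, with 733 CPM in haemato-endothelial progenitor and 418 in extraembryonic mesoderm. Lhx1, a LIM homeodomain factor of axial and intermediate mesoderm, had 2 members, and they differed. The one 28238 bp away had 7.40 CPM in the class and at most 1.97 elsewhere, in streak. The one 76548 bp away had 35.8 CPM in the class, 17.8 in extraembryonic mesoderm, 14.0 in haemato-endothelial progenitor, 7.2 in node and axial mesendoderm and 5.31 in visceral endoderm. Tcf15 RNA was at 2.89 CPM against 2.26 and had a member at 23575 bp with 12.2 CPM in the class.

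No member lay within 100000 bp of Mesp1, Mesp2, Eomes, T, Mixl1, Gata4, Gata6, Tbx6 or Msgn1. Mesp1, a gene that defined the class and an early marker of cardiac progenitors, had as its best eligible peak one 8574 bp away at rank 1285, with 218 class counts and a 4.89-fold ratio. The best near Tbx6, a T-box factor of presomitic mesoderm, ranked 1391 with 816 class counts and 4.74-fold, and the best near Msgn1, at 5.39-fold, ranked 1023, just past the limit. Peaks near Mixl1, Eomes and Gata6 reached 5.04-fold, 3.46-fold and 4.12-fold, and none near T, the streak factor Brachyury, exceeded 1.87-fold. The absence of members near these genes is thus an absence above the limit, and peaks of lower ratio were there.

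Adhesion, guidance and matrix genes had a member within 100000 bp in 7 of 35 cases, 34 of them autosomal, against 7.86% of all autosomal genes. Apart from the 5 class genes and the 18 other embryonic mesoderm genes, the list held 30. Of these, 23 had an eligible peak within that distance and 5 had a member, against 2386 of the 20619 genes with an eligible peak. In RNA 19 of 33 genes of the full list were at least 2-fold higher and 2 lower, against 5.67% and 16.0% of all genes. Tenm2, a teneurin cell-surface gene that defined the class, contained 4 members, 299195 to 513309 bp from its listed starts. Those members had 37.8, 16.6, 10.5 and 9.65 CPM in the class and 13.3, 1.97, 3.94 and 2.95 in streak. The member of 16.6 CPM, chr11:36429969-36430857, ranked eighth of all with 258 class counts and a 14.5-fold ratio (11.3 to 18.6). Its neighbour, chr11:36432215-36433095, had 9.65 CPM in the class and 4.0 in node and axial mesendoderm, where the former had 0.4. Tenm4, a related gene, had a member 3560 bp from its start at 41.4 CPM in the class and 18.7 in streak, and 2 within its body at 10.4 and 12.9 CPM. Tenm4 RNA was 7.65-fold higher (7.51 to 7.80).

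The other members of this group lay inside or near genes for contact and guidance. Robo1, a receptor for Slit guidance cues, contained a member with 20.1 CPM in the class, 4.59 in streak and 2.07 in extraembryonic mesoderm, and its RNA was 5.55-fold higher. Cdh11, a mesenchymal cadherin, contained a member of 7.27 CPM, and Cdh2, or N-cadherin, one of 8.30 CPM, with RNA 6.71-fold and 3.91-fold higher than in all other nuclei. Cdh11 RNA was 687 CPM in the class and 785 CPM in extraembryonic mesoderm. Ncam1 contained 2 members of 13.4 and 8.82 CPM and Epha4 one of 9.14 CPM, and their RNA was 4.36-fold and 3.87-fold higher. Cdh4, a classical cadherin outside the list, contained 3 members, of 18.0, 15.1 and 7.14 CPM in the class. The first of these was at 11 CPM in node and axial mesendoderm, the second at 1.2.

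Among the 12 genes nearest to most members, Dlc1, Lef1, Rbms1 and 4932435O22Rik were at least 2-fold higher in RNA in the class. That limit fell among 15 genes with 3 members each, of which 9 were taken by the number of members within 100000 bp and then by name. The 6 left out were Cdh4 and Xylt1, with RNA 2.92-fold and 3.72-fold higher, Magi1 and Rps15a, with 1.35-fold and 0.898-fold, and Gm12127 and Gm36737, with 0 UMIs. Rbms1, an RNA-binding protein gene, contained 3 members with 16.5, 10.4 and 10.0 CPM, and its RNA was 847 CPM against 313 (2.71-fold, 2.64 to 2.78). Rbms1 RNA was higher still in haemato-endothelial progenitor, at 1186 CPM, where its members lay at 1.27, 0.725 and 2.36 CPM. Dab2ip, a Ras GTPase-activating gene, had 4 members within 100000 bp, 1 of them at 44.4 CPM in the class, and its RNA was 64.6 CPM in the class and 62.2 CPM in the others (1.04-fold, 0.952 to 1.13). Agpat4, a lysophosphatidic acid acyltransferase gene, had 3, and its RNA was at 55.2 and 56.5 CPM. The long non-coding gene 4932435O22Rik had 3 members and RNA of 28 UMIs in the class and 56 in the others (7.85-fold, 4.80 to 12.6).

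**Figure D5:**
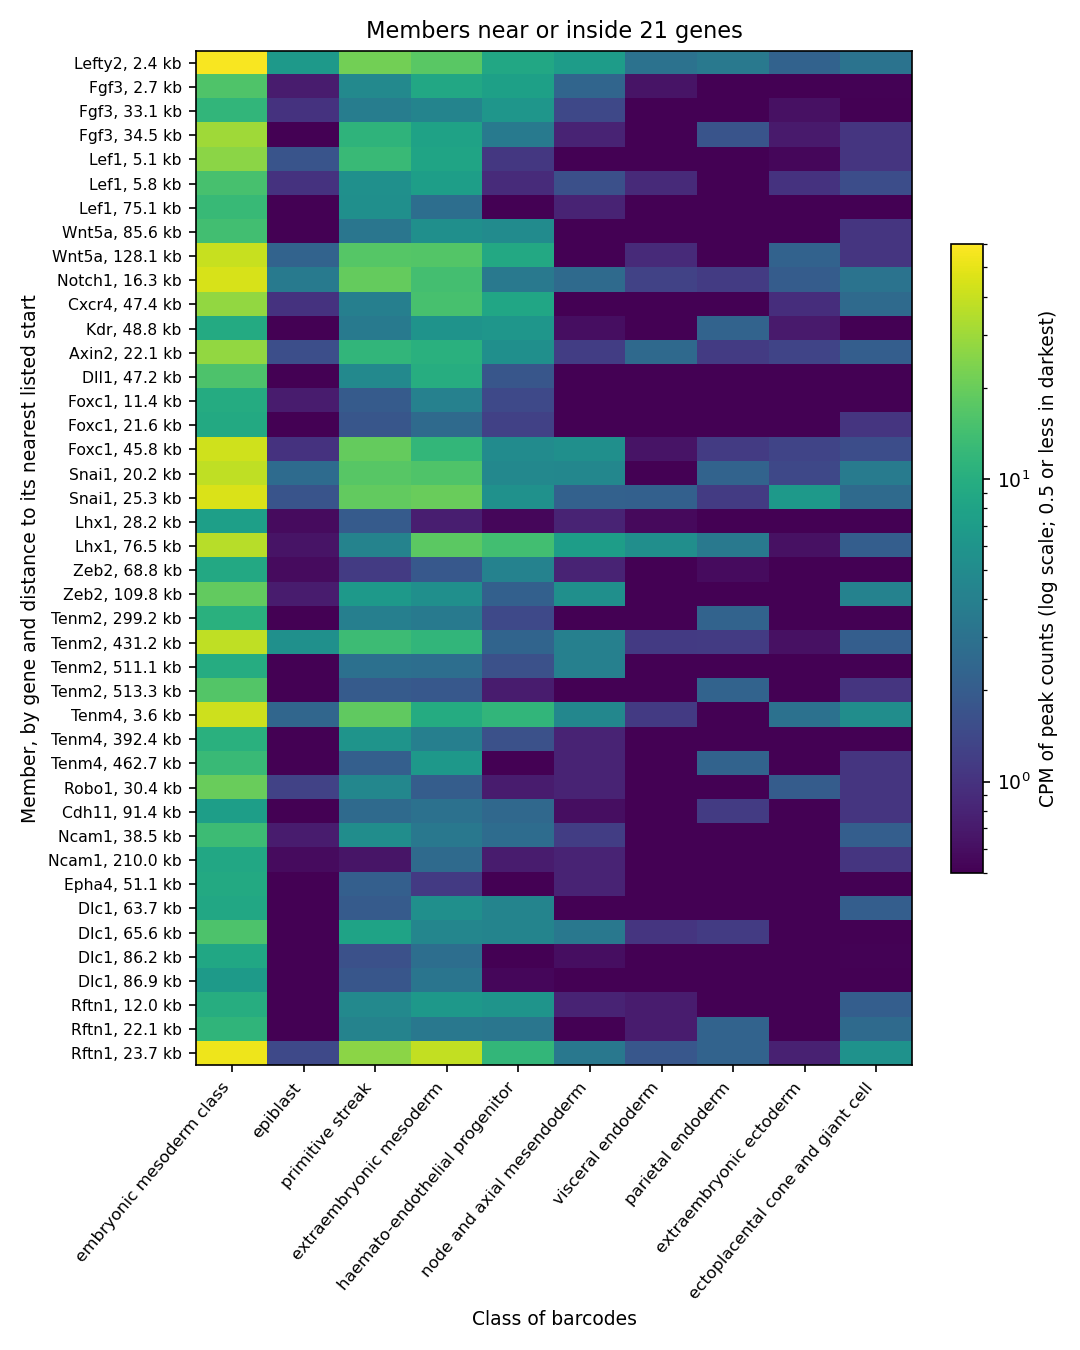
CPM of peak counts (colour, log scale) in each of 10 classes (x axis) for the members near or inside 21 genes (y axis; gene and distance in kb to its nearest start). The first column, the class used to choose the members, is brightest in each row, streak or extraembryonic mesoderm comes next in most rows but not all (haemato-endothelial progenitor does for Kdr), and epiblast is dark in most rows.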

How the data were processed

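The deposited values were whole-number counts, UMIs per gene and counts per accessibility peak, in 1 matrix of 32285 genes, 229480 peaks and 15341 barcodes. Per the submitters' processing notes, Cell Ranger ARC 2.0.0 and the build mm10 were used. The peak caller is not given in the sources used here. Coordinates are 1-based; 99.6% of 20663 coding symbols had their starts within 1000 bp of or inside the RefSeq gene of GRCm38.p6. The matrix held 182201512 UMIs and 273131304 peak counts.

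Of nonzero peak values, 86.4% were even and 74.0% equalled 2, so intervals (exact, 95%) used estimated fragments (the count divided by 2, rounded up). Doublets were called with Scrublet in scanpy (expected rate 0.1) and kept, with their removal as an alternative. The scripts were checked on simulated data. The members and lists were chosen with earlier results of these data known. Genes and members were named by rule: the 10 highest ratios, the 5 highest counts, 5 on each side of the limit, the 12 genes nearest to most members and list genes nearest to 2 or more; others named were chosen after their values were seen. No reference genome was used. Scripts ran in python 3.11.15 with numpy 2.4.6, scipy 1.17.1, pandas 2.3.3, scanpy 1.11.5 and matplotlib 3.10.9.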

Additional observations from a re-analysis of the deposited data

How the results depend on the processing

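With 1 library per assay, no result could be tested across replicates. Leaving out replicates was not possible. No paired analysis was possible because each group had 1 sample, although both assays read the same nuclei. Of the 1000 members, 717 to 945 were shared under 12 of 13 alternatives, and 374 when at least 200 class counts were asked for. A higher count minimum, 5000 bp from starts or whole start ranges kept out left the order of peaks unchanged. The numbers shared there (374, 893 and 905) therefore only count the members that still qualified. The median class-over-other ratio, 6.89, was 5.88 with 500 class barcodes, 8.06 with 1000, 7.52 without doublet calls, and 6.5, 6.69 and 6.6 with Lefty2, Pcdh19 or Tenm2 left out of the score. It was 4.80 with at least 200 class counts, 6.63 with 5000 bp from starts, 6.67 with whole start ranges kept out and 7.24 with 5000 to 20000 UMIs. Members most open in the class numbered 896 to 980 over 15 alternatives. Nearest genes called higher in RNA numbered 135 to 217 over 16. The 217 were counted at a fold of 1.5 instead of 2, against 12.3% of all genes. The highest count at 2-fold, 203, took the nearest of genes with at least 50 UMIs. Depth limits single members: at 100 counts in 700 nuclei most class nuclei had none.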
